A study of Mus musculus with 11 samples.

Results

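The 10 genes described here encode the mouse shelterin complex (Terf1, Terf2, Terf2ip, Tinf2, Acd, Pot1a and Pot1b) and the core of telomerase (Tert, Terc and Dkc1). They were chosen by name from the 53801 gene identifiers counted in the series, with no threshold on a measured value, because SMG6, the protein deleted in the study, is also known as the telomerase-associated factor EST1A. All 10 were found in the annotation and all 10 passed the filter on low counts in every comparison. Total RNA of neuroprogenitor cell (NPC) cultures from brains of E13.5 mouse embryos was sequenced after removal of ribosomal RNA, in 11 libraries of 50-base reads. All embryos carried Smg6 Flox/Flox on a background of C57BL/6 mixed with 129SV. The Ctr group (n = 3 embryos) carried RosaCreER tg/+, a tamoxifen-inducible Cre at the ubiquitously expressed Rosa26 locus, and was left untreated. The Smg6-iKO group (n = 4) had the same genotype and received 1 µM 4-hydroxytamoxifen (4-OHT) for 3 days, by which Cre is activated and Smg6 is deleted, with RNA taken on day 6 counted from the first 4-OHT. That timing is the one in the labels and the series description, and other descriptions of the experiment can be read as 6 days in 4-OHT or 6 days after it. The Ctr + 4-OHT group (n = 4) received 4-OHT as well, but was RosaCreER +/+ and therefore had no Cre to activate. Embryos are named as in the labels. Cells of embryos SMH_128, SMH_132 and SMH_133 were present in both Ctr and Smg6-iKO, whereas the Ctr + 4-OHT cultures came from other embryos. Smg6-iKO therefore differed from Ctr in 4-OHT as well as in the deletion, and from Ctr + 4-OHT in the Cre genotype and the embryos as well as in the deletion.

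Shelterin covers the TTAGGG repeats of chromosome ends and keeps the DNA damage machinery from reading an end as a break. TERF1 and TERF2 bind the double-stranded repeat, TERF2IP (RAP1) rides on TERF2, TINF2 (TIN2) ties TERF1 and TERF2 together, and ACD (TPP1) links TINF2 to the POT1 proteins, which hold the single-stranded overhang. Mice carry a pair of POT1 genes, of which Pot1b is known for limiting the resection of the overhang and Pot1a for holding back ATR signalling. Telomerase lengthens the ends with the reverse transcriptase TERT, the RNA template TERC and dyskerin (DKC1), which stabilizes TERC and also modifies ribosomal RNA. SMG6 itself is best known as the endonuclease of nonsense-mediated mRNA decay (NMD), the pathway that removes transcripts with early stop codons.

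In GRCm38, the shelterin genes lay at chr1:15805646-15844052 (Terf1, ENSMUSG00000025925), chr8:107069400-107096547 (Terf2, ENSMUSG00000031921), chr8:112011398-112020528 (Terf2ip, ENSMUSG00000033430), chr14:55674689-55681820 (Tinf2, ENSMUSG00000007589), chr8:105695860-105701102 (Acd, ENSMUSG00000038000), chr6:25743737-25809246 (Pot1a, ENSMUSG00000029676) and chr17:55652025-55712628 (Pot1b, ENSMUSG00000024174). The telomerase genes lay at chr13:73626911-73649843 (Tert, ENSMUSG00000021611), chr3:96414437-96414859 (Terc, ENSMUSG00000064796) and chrX:75095854-75109777 (Dkc1, ENSMUSG00000031403). Each is protein coding except Terc, a non-coding RNA annotated at 423 bases, with no poly(A) tail, which a library of total RNA can hold.

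The complement of the telomere repeat is carried by Terc, the RNA that telomerase copies. The first 120 bases of Terc (GENCODE M21 transcript, GRCm38, minus strand, chr3:96414740-96414859) are shown because they hold this template, with the 8 bases complementary to the telomere repeat in capitals, from base 29 to base 36 of the annotated transcript.
Terc: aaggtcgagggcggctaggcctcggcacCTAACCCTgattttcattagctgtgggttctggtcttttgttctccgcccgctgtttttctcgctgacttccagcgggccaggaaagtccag

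The 150 bases before the start of Tinf2, Pot1b and Tert (RefSeq, GRCm38.p6) are shown because these are the shelterin genes that passed the test below and the gene with the largest fold change among the 10. They lay at chr14:55681818-55681967 on the minus strand (Tinf2), chr17:55712637-55712786 on the minus strand (Pot1b) and chr13:73626761-73626910 on the plus strand (Tert). Capitals mark GGGCGG, the core of the GC box bound by SP1, on either strand, and TTAGGG, the telomere repeat unit.
Tinf2: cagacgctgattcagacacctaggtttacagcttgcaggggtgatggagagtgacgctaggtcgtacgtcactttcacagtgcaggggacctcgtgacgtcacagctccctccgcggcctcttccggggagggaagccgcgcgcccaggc
Pot1b: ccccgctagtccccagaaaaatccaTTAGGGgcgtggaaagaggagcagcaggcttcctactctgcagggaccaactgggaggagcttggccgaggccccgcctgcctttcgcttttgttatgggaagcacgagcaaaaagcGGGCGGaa
Tert: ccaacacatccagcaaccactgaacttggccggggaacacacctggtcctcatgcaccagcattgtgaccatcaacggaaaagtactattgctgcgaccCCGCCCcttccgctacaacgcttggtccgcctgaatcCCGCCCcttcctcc
In the Tert stretch GGGCGG was read on the other strand, as CCGCCC, with its first base 51 and 14 bases before the start. In the Pot1b stretch it stood 8 bases before the start, and TTAGGG stood further upstream. RefSeq also gives another start for Pot1b, from which GGGCGG stood 20 and TTAGGG 137 bases upstream. Promoters of 300 bases, 250 before and 50 after the start, were at hand for 8 of the 10 genes, all but Terf1 and Terc. The 8 were counted by gene, with 2 promoters each for Terf2 and Pot1b, whereas the background was counted by promoter. GGGCGG on either strand was found in 5 of the 8 (Terf2, Terf2ip, Pot1a, Pot1b and Tert), against 35.7% of 32851 mouse promoters. TTAGGG on either strand was found in 1 of the 8, against 10.6% of all promoters, and CACGTG, the E-box bound by MYC and MAX and the same on both strands, in 0 of the 8, against 7.2%. These are counts of letters in a window and were not tied to the expression values.

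Each library held 26418249 to 33756875 reads assigned to genes. Smg6, counted over the whole gene, had 69.4, 79.4 and 74.3 counts-per-million (CPM) in Ctr, 66.5, 72.0, 72.3 and 66.6 in Ctr + 4-OHT and 62.5, 62.3, 71.9 and 67.5 in Smg6-iKO. Its log2 fold change in Smg6-iKO was -0.06 (edgeR adjusted p = 0.703) against Ctr + 4-OHT and -0.17 (adjusted p = 0.148) against Ctr. With the embryo fitted as a block it was called lower than in Ctr (-0.15, adjusted p = 0.0430), and it was lower in 3 of 3 embryos. The deposited counts sum all exons of a gene, and which exons are deleted is not given in the sources used here, so the size of this difference is no measure of the deletion. Esr1, the estrogen receptor gene whose hormone-binding part is fused to Cre in CreER, followed the genotypes, with 3.89 to 4.71 CPM in the 7 libraries labelled with RosaCreER and 0.0323 to 0.283 CPM in the 4 labelled without it. Markers of neural progenitors were abundant in all groups, with a summed level of the 9 markers between 5408 and 7038 CPM, whereas the 5 microglia markers summed to at most 3.79 CPM and the 4 blood markers to at most 0.431 CPM. In bulk cultures such as these, fewer cells of a type and less RNA per cell cannot be told apart.

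All 10 genes were expressed in NPCs, and their levels per exon length, in FPKM (CPM per kilobase of exon, here from single reads), spanned more than an order of magnitude. Over the 11 libraries Dkc1 was highest, with 15.7 ± 1.55 FPKM (SD, n = 11), followed by Terc with 11.1 ± 1.55 FPKM. The shelterin genes formed a narrow band below them: Acd at 8.87 ± 0.64, Terf2 at 8.59 ± 0.554, Terf2ip at 7.97 ± 0.517, Tinf2 at 7.91 ± 0.734, Pot1a at 6.64 ± 0.519, Terf1 at 5.67 ± 0.579 and Pot1b at 4.57 ± 0.451 FPKM. Tert, the catalytic subunit, was lowest at 0.914 ± 0.135 FPKM. Dkc1 stood at the 80.6th percentile of the 18123 genes kept over the 11 libraries, the shelterin genes between the 51st (Pot1b) and the 67th (Acd), and Tert in the lower part of the range. Not every step of this order exceeded the spread: Terf2ip was above Tinf2 in only 6 of 11 libraries and Acd above Terf2 in 8 of 11, and Terc was above Acd in 10 of 11. Every other neighbour in the order was separated in all 11 libraries, each compared within its own library. Terc, annotated at 423 bases, ranked 2 by FPKM and 10 by CPM, which is not divided by length. Pot1a, with 8669 exon bases, ranked 7 by FPKM and 2 by CPM, so the order of the shelterin genes also rests on these lengths.

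**Figure D1:**
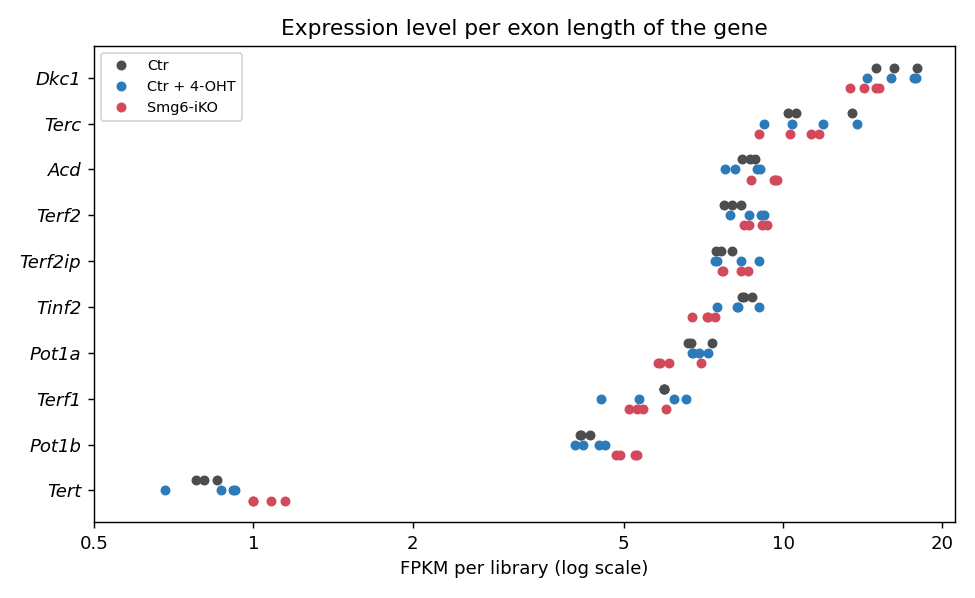
Level of each gene in FPKM per library (horizontal log axis), with 1 point per library and colours for Ctr (n = 3), Ctr + 4-OHT (n = 4) and Smg6-iKO (n = 4). Dkc1 and Terc lie at the top, the 7 shelterin genes lie between 4.04 and 9.76 FPKM, and Tert lies between 0.682 and 1.15 FPKM.

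Differences of the shelterin and telomerase genes upon Smg6 deletion were small. Fold changes were estimated with the quasi-likelihood test of edgeR on all genes kept, and a gene was called when its Benjamini-Hochberg adjusted p was under 0.05. In Smg6-iKO against Ctr + 4-OHT, 0 of the 10 genes were called, beside 1.17% of the 17558 genes tested, and their log2 fold changes lay between -0.20 and 0.33. At an unadjusted p under 0.05, 5 of the 10 passed (Tinf2, Acd, Pot1b, Tert and Dkc1), beside 16.7% of all genes, and the DESeq2 test also called 0, beside 6.16% of the genes to which it gave an adjusted p. In Smg6-iKO against Ctr, 2 of the 10 were called, beside 9.25% of 17974 genes: Tinf2 fell to 0.837-fold and Pot1b rose to 1.21-fold. DESeq2 called the same 2 genes, beside 16.2% of all genes with an adjusted p. In Ctr + 4-OHT against Ctr, where treatment, Cre genotype and embryos differed together and cannot be told apart, 0 of the 10 were called, beside 0.221% of 17665 genes, 0 of the 10 had an unadjusted p under 0.05, beside 8.28%, and DESeq2 called 0, beside 0.83%. The log2 fold changes of the 10 in that comparison lay between -0.07 and 0.12. Across the 10 genes the median absolute log2 fold change was 0.16 in Smg6-iKO against Ctr + 4-OHT, 0.15 against Ctr and 0.05 in Ctr + 4-OHT against Ctr, where all genes tested had 0.12, 0.15 and 0.11.

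When the embryo was fitted as a block, which compares Smg6-iKO with Ctr cells within embryos SMH_128, SMH_132 and SMH_133, 4 of the 10 genes were called (Tinf2, Pot1b, Tert and Dkc1), beside 21.4% of all genes. Smg6-iKO SMH_127, which has no Ctr library of its embryo, does not enter that estimate. Within these embryos, 8 of the 10 genes differed in the same direction in 3 of 3 embryos, beside 51.5% of the 18123 genes kept: Terf2, Terf2ip, Acd, Pot1b and Tert were higher in each Smg6-iKO library than in the Ctr library of the same embryo, and Tinf2, Pot1a and Dkc1 lower. Across all libraries, the Smg6-iKO values of 3 of the 10 genes did not overlap with those of the 7 control libraries, beside 6.4% of genes. These were Tinf2, with all 4 below, and Pot1b and Tert, with all 4 above.

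**Figure D2:**
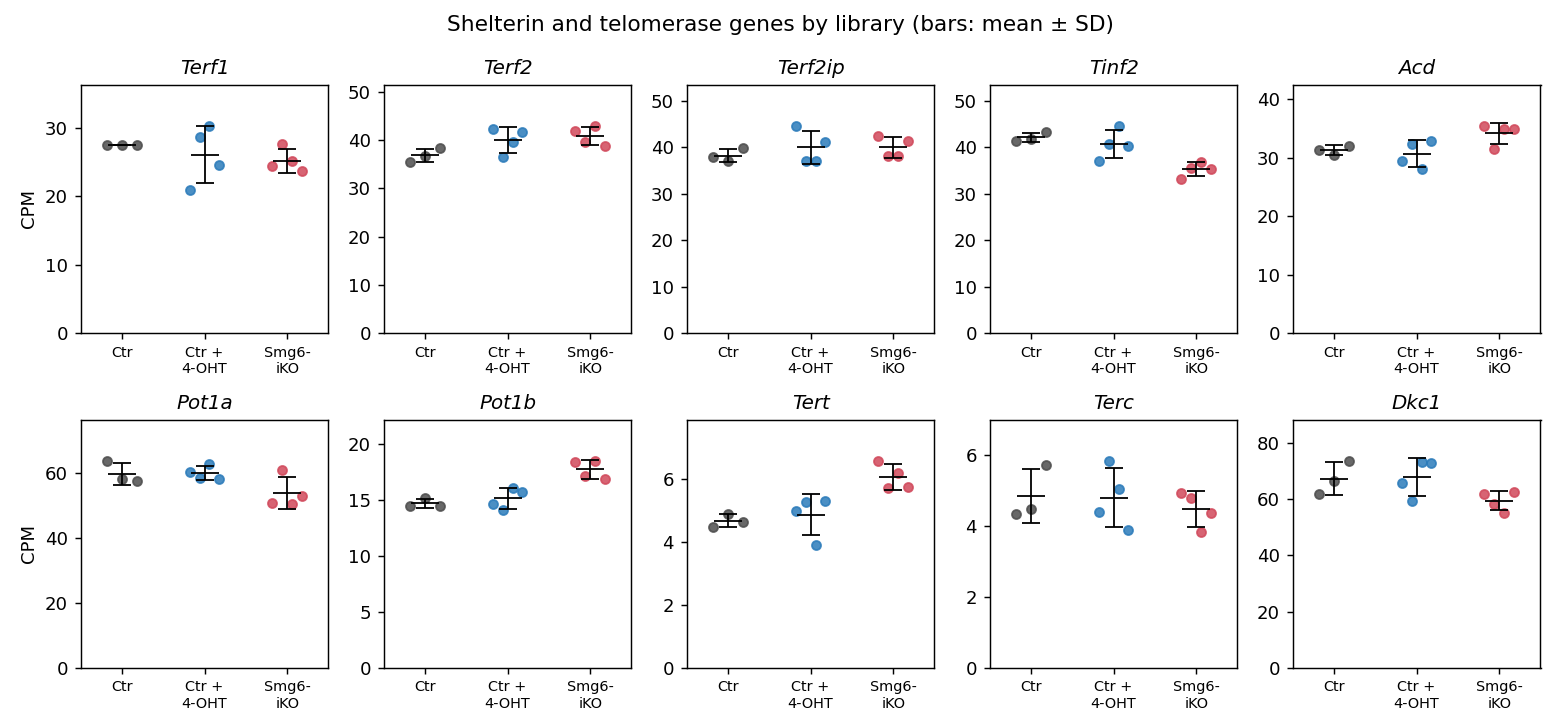
Each panel shows 1 gene in CPM (vertical axis from 0), with 1 point per library and bars for mean ± SD in Ctr (n = 3), Ctr + 4-OHT (n = 4) and Smg6-iKO (n = 4). The 4 Smg6-iKO points of Tinf2 lie below every control point and those of Pot1b and Tert above every control point, whereas the groups overlap in the other 7 genes.

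Of the proteins that bind the double-stranded repeat, none was called in any comparison. Terf1 had 27.5, 27.5 and 27.5 CPM in Ctr, 20.9, 28.6, 30.2 and 24.6 in Ctr + 4-OHT and 24.4, 27.6, 25.1 and 23.6 in Smg6-iKO. The Smg6-iKO values sat inside the range of Ctr + 4-OHT, which spread widest for this gene. Its log2 fold change was -0.04 ± 0.11 (SE; edgeR adjusted p = 0.887) against Ctr + 4-OHT and -0.13 ± 0.07 (adjusted p = 0.257) against Ctr.

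Terf2, which folds the chromosome end into a loop and holds back ATM signalling, had 35.5, 36.8 and 38.3 CPM in Ctr, 42.3, 36.5, 39.7 and 41.8 in Ctr + 4-OHT and 42.0, 39.7, 42.9 and 38.9 in Smg6-iKO. All 4 Smg6-iKO libraries were above the 3 Ctr libraries, but 3 of the 4 Ctr + 4-OHT libraries were as well. The log2 fold change was 0.04 ± 0.07 (edgeR adjusted p = 0.814) against Ctr + 4-OHT and 0.15 ± 0.06 (adjusted p = 0.131) against Ctr, and Ctr + 4-OHT differed from Ctr by 0.12 ± 0.08 (adjusted p = 0.700). Terf2ip, its partner, had between 37.0 and 44.5 CPM over the 11 libraries with overlapping groups, and log2 fold changes of 0.01 ± 0.08 (adjusted p = 0.949) and 0.07 ± 0.06 (adjusted p = 0.512). The intervals bound what could be missed: a change of Terf2ip against Ctr + 4-OHT lay between -0.15 and 0.18 on the log2 scale (95% interval).

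Tinf2, the bridge of the complex, was the shelterin gene that fell. It had 41.4, 41.7 and 43.2 CPM in Ctr, 37.1, 40.6, 44.5 and 40.3 in Ctr + 4-OHT and 33.2, 35.6, 36.8 and 35.4 in Smg6-iKO. The groups of Smg6-iKO and controls did not overlap, although the lowest Ctr + 4-OHT library (37.1) lay close to the highest Smg6-iKO library (36.8). Against Ctr, Tinf2 was at 0.837-fold (95% interval 0.768 to 0.912), a log2 fold change of -0.26 ± 0.06 (edgeR adjusted p = 0.0208), and at -0.23 ± 0.06 in the blocked fit (adjusted p = 0.0098). Against Ctr + 4-OHT the log2 fold change was -0.20 ± 0.07 with an adjusted p of 0.191, which missed the threshold. The call against Ctr was lost, with adjusted p up to 0.0663, when any of the 3 Ctr libraries or Smg6-iKO SMH_127 or SMH_133 was left out, and the log2 fold change then stayed between -0.27 and -0.23.

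Of the exon bases of Tinf2, 31.19% lie opposite Gmpr2, a gene on the other strand, and the counting was strand-specific. Gmpr2 had 27.8 to 32.9 CPM in Smg6-iKO, 30.2 to 31.9 in Ctr and 27.6 to 34.9 in Ctr + 4-OHT, with a log2 fold change of -0.03 ± 0.07 (edgeR adjusted p = 0.823) against Ctr.

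Acd, which recruits telomerase to the end, had 31.4, 30.4 and 32.1 CPM in Ctr, 29.5, 32.4, 28.1 and 32.9 in Ctr + 4-OHT and 35.4, 31.5, 35.0 and 34.9 in Smg6-iKO. Of the Smg6-iKO libraries, 3 stood above every control and the culture of embryo SMH_128 stood among the controls. Its log2 fold change was 0.17 ± 0.07 (edgeR adjusted p = 0.273) against Ctr + 4-OHT and 0.13 ± 0.06 (adjusted p = 0.209) against Ctr. Of its exon bases, 33.32% lie opposite Carmil2, a gene on the other strand. Carmil2 had 3.45 to 4.17 CPM in Ctr, 2.55 to 3.94 in Ctr + 4-OHT and 3.08 to 5.13 in Smg6-iKO. Its lowest Smg6-iKO library was that of embryo SMH_128, as for Acd. A link between these genes was not tested.

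Pot1b, the POT1 gene that limits resection of the overhang, was the shelterin gene that rose. Pot1b had 14.5, 15.2 and 14.5 CPM in Ctr, 14.7, 14.1, 16.1 and 15.7 in Ctr + 4-OHT and 18.4, 17.2, 18.5 and 16.9 in Smg6-iKO, so that every Smg6-iKO library was above every control. Against Ctr it was at 1.21-fold (95% interval 1.08 to 1.35), a log2 fold change of 0.27 ± 0.07 (edgeR adjusted p = 0.0427), and at 0.25 ± 0.08 in the blocked fit (adjusted p = 0.0219). Against Ctr + 4-OHT the log2 fold change was 0.24 ± 0.07 with an adjusted p of 0.148. The call against Ctr stood close to the threshold: it was lost without the filter on low counts (adjusted p = 0.0544), in a fit of all 11 libraries (0.0552), after a correction for gene length (0.0664, and 0.0521 together with the block), and when any library other than Smg6-iKO SMH_128 was left out (up to 0.124).

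Pot1a had 63.6, 58.0 and 57.4 CPM in Ctr, 60.3, 58.5, 62.6 and 58.2 in Ctr + 4-OHT and 50.8, 60.8, 50.3 and 52.8 in Smg6-iKO. Of the Smg6-iKO libraries, 3 were below every control, while that of embryo SMH_128 lay within the controls. The log2 fold change was -0.15 ± 0.07 (edgeR adjusted p = 0.308) against Ctr + 4-OHT and -0.15 ± 0.08 (adjusted p = 0.227) against Ctr, and neither passed the test. Against Ctr it passed when Smg6-iKO SMH_128 was left out (adjusted p = 0.0461) and with block and length correction together (adjusted p = 0.0376). The ratio of Pot1b to Pot1a, in FPKM, was 0.563 to 0.647 in Ctr, 0.599 to 0.669 in Ctr + 4-OHT and 0.703 to 0.911 in Smg6-iKO. The ratio was chosen after the values were seen and is given without a test.

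Tert, the reverse transcriptase, was the telomerase gene whose Smg6-iKO values lay above every control. Tert had 4.47, 4.89 and 4.63 CPM in Ctr, 4.99, 5.25, 3.91 and 5.30 in Ctr + 4-OHT and 6.56, 5.72, 6.18 and 5.73 in Smg6-iKO, from 121 to 225 reads per library. The nearest pair of a Smg6-iKO and a control library was at 5.72 and 5.30 CPM. The fold change was 1.26 (95% interval 1.04 to 1.52; edgeR adjusted p = 0.213) against Ctr + 4-OHT and 1.30 (95% interval 1.10 to 1.53; adjusted p = 0.0562) against Ctr, so neither passed. With the embryo as a block Tert rose by 0.33 ± 0.11 on the log2 scale (adjusted p = 0.0418) against Ctr, though not once the length correction was added (adjusted p = 0.0657), and it also passed with upper-quartile normalization and without Smg6-iKO SMH_128.

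Terc, the template RNA, had 4.33, 4.47 and 5.70 CPM in Ctr, 4.39, 5.82, 5.04 and 3.89 in Ctr + 4-OHT and 4.93, 4.77, 3.81 and 4.37 in Smg6-iKO, from 106 to 169 reads per library, and the 3 groups overlapped. The log2 fold change was -0.09 ± 0.15 (edgeR adjusted p = 0.820) against Ctr + 4-OHT and -0.11 ± 0.14 (adjusted p = 0.672) against Ctr. The 95% interval of the fold change against Ctr ran from 0.745 to 1.15, at this low count. The ratio of Tert to Terc, in FPKM, was 0.0599 to 0.0807 in Ctr, 0.0573 to 0.101 in Ctr + 4-OHT and 0.0886 to 0.12 in Smg6-iKO, where the last 2 groups overlapped.

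Dkc1, the dyskerin gene, had 61.9, 66.6 and 73.6 CPM in Ctr, 65.8, 59.5, 73.4 and 73.0 in Ctr + 4-OHT and 61.8, 58.3, 55.2 and 62.7 in Smg6-iKO. The groups overlapped. Within embryos, Dkc1 went from 61.9 in Ctr to 58.3 CPM in Smg6-iKO in SMH_128, from 66.6 to 55.2 in SMH_132 and from 73.6 to 62.7 in SMH_133. The log2 fold change was -0.18 ± 0.08 (edgeR adjusted p = 0.281) against Ctr + 4-OHT and -0.18 ± 0.07 (adjusted p = 0.147) against Ctr. With the embryo as a block Dkc1 fell by 0.20 ± 0.05 on the log2 scale (adjusted p = 0.0149).

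**Figure D3:**
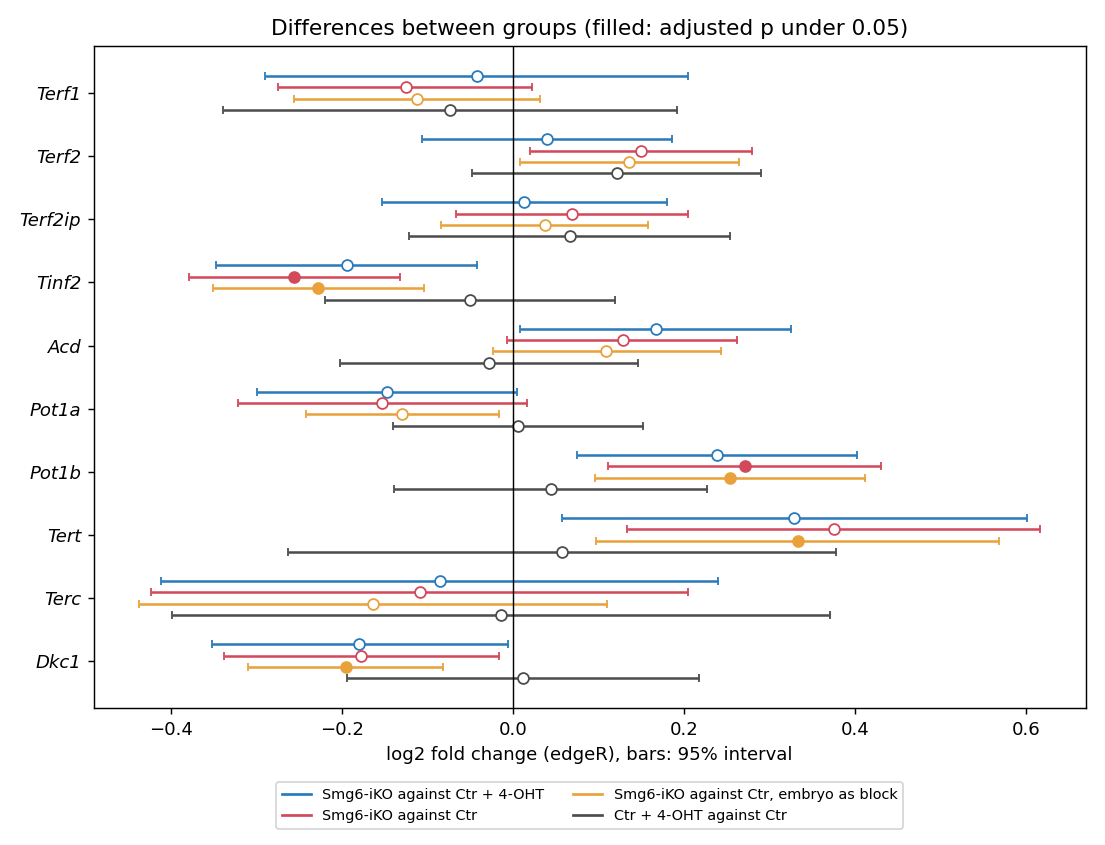
Log2 fold change (horizontal axis) of each gene with its 95% interval from edgeR, for Smg6-iKO against Ctr + 4-OHT, Smg6-iKO against Ctr with and without the embryo as a block, and Ctr + 4-OHT against Ctr. Filled points have an adjusted p under 0.05, which holds for Tinf2 and Pot1b against Ctr and, with the block, also for Tert and Dkc1.

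**Figure D4:**
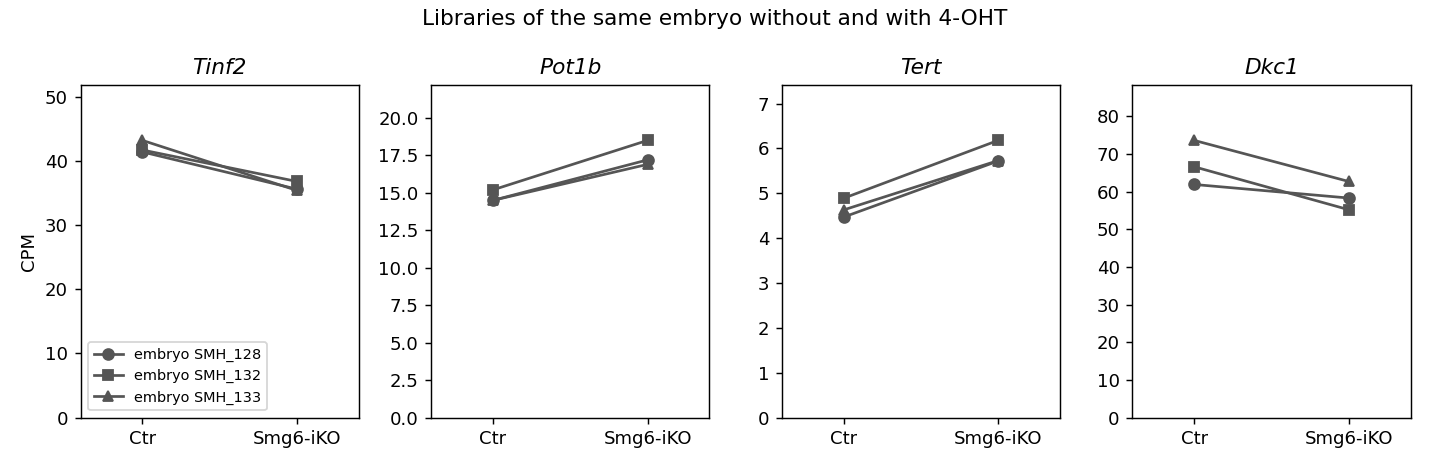
CPM (vertical axis from 0) of Tinf2, Pot1b, Tert and Dkc1 in the Ctr and Smg6-iKO libraries of embryos SMH_128, SMH_132 and SMH_133, with 1 line per embryo. Tinf2 and Dkc1 are lower and Pot1b and Tert higher in the deleted cells of 3 of 3 embryos.

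SMG6 cuts NMD targets, so the genes were also grouped by whether GENCODE M21 annotates a transcript of the NMD class. Acd and Tert have 3 such transcripts each, Dkc1 has 2, and Terf2 and Pot1b have 1 each, whereas Terf1, Terf2ip, Tinf2, Pot1a and Terc have none. Of the 5 genes with an annotated NMD transcript, 4 had a log2 fold change above 0 against each control, with Dkc1 the exception, and of the 4 protein-coding genes without, 1 did (Terf2ip). Over all protein-coding genes tested, 57.0% of those with and 51.1% of those without were above 0 against Ctr + 4-OHT, and 53.7% and 49.2% against Ctr. In Ctr + 4-OHT against Ctr the numbers were 4 of 5 and 2 of 4, beside 49.5% and 51.5%. Against Ctr + 4-OHT, the 3846 with an NMD transcript had a median log2 fold change of 0.03, with 49 called higher and 9 lower, and the 10087 without had a median of 0.005, with 60 called higher and 61 lower. Against Ctr the medians were 0.016 with and -0.003 without, and the calls were 229 higher and 191 lower with, and 458 higher and 678 lower without. The deposited counts sum all transcripts of a gene, so the NMD transcripts of Tert, Acd or Pot1b were not measured on their own.

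Other genes of telomere biology were read from lists by role, as counts of genes called. Against Ctr + 4-OHT, 1 gene of these lists was called by edgeR, beside 1.17% of all genes. It was Smg5, an NMD factor and a relative of Smg6 in the EST1 family, which rose by 0.32 on the log2 scale (edgeR adjusted p = 0.0202) and against Ctr by 0.43 (adjusted p = 0.0035). DESeq2 called 11 of the 67 genes of the lists outside the EST1 family against Ctr + 4-OHT, beside 6.16% of genes with an adjusted p. Smg5 was at 136 ± 5.08 CPM (SD, n = 4) in Smg6-iKO, 110 ± 5.49 (n = 4) in Ctr + 4-OHT and 101 ± 7.12 (n = 3) in Ctr, and its highest control library (116) was below its Smg6-iKO libraries.

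Against Ctr, 1 of 13 genes of the H/ACA particle and telomerase assembly was called, beside 9.25% of all genes: Nhp2, a partner of dyskerin on TERC, fell by 0.46 on the log2 scale (edgeR adjusted p = 0.0096). Nhp2 had 32.3 to 37.4 CPM in Smg6-iKO and 41.3 to 52.0 in Ctr, but 33.2 to 40.1 in Ctr + 4-OHT, and its log2 fold change against that control was -0.11 (adjusted p = 0.518). With the block, 3 of the 13 were called, beside 21.4% of all genes, as Nop10 and Parn, which acts on the TERC 3' end, also fell (-0.21 and -0.17 on the log2 scale). Against Ctr + 4-OHT, Nop10 had -0.20 (adjusted p = 0.186) and Parn -0.001 (adjusted p = 0.994).

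Of the 7 genes of the CST complex and primase, which fill in the strand opposite the overhang, 1 was called against Ctr, beside 9.25% of all genes: the primase Prim1 fell (-0.29, adjusted p = 0.0191). Of 10 telomere helicases and nucleases 0 were called by edgeR against Ctr, 1 by DESeq2 and 4 at an unadjusted p under 0.05, and with the block Rtel1, which unwinds the telomere loop, rose (0.24, adjusted p = 0.0030) while Blm and Pif1 fell (-0.19 and -0.17), 3 of 10 beside 21.4% of all genes. Of 14 genes of telomere end sensing, 1 was called against Ctr, beside 9.25% of all genes: the single-strand binding protein gene Rpa1 fell (-0.28, adjusted p = 0.0190). With the block Xrcc5 fell (-0.23) and Prkdc rose (0.23), which made 3 of 14 beside the same 21.4%. Both overlapped with Ctr + 4-OHT. Xrcc5 had 35.1 to 40.0 CPM in Smg6-iKO and 36.8 to 41.9 in Ctr + 4-OHT, and Prkdc 55.4 to 57.0 and 45.0 to 58.5.

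Of 8 genes of telomere chromatin, 3 fell against Ctr, beside 9.25% of all genes: the histone chaperone Asf1a (-0.21, adjusted p = 0.0458), the histone methyltransferase Suv39h1 (-0.21, adjusted p = 0.0460) and Cbx5, which encodes HP1 alpha (-0.21, adjusted p = 0.0423). Of the 7 shelterin partners tested, 0 were called without the block by edgeR or DESeq2 and 2 had an unadjusted p under 0.05 against Ctr, and Tnks2 and Nek7 fell with it (-0.16 and -0.28), 2 of 7 beside 21.4% of all genes. Of 8 regulators of Tert transcription, 1 rose and 3 fell against Ctr, beside 9.25% of all genes. Klf4 rose (0.40, adjusted p = 0.0416), and Mxd1 (-0.30, adjusted p = 0.0242), Ctnnb1 (-0.19, adjusted p = 0.0378) and Sp1 (-0.27, adjusted p = 0.0366) fell. The Smg6-iKO libraries lay inside the Ctr + 4-OHT range for Klf4 (10.5 to 11.1 CPM within 6.82 to 11.8) and Mxd1 (27.9 to 30.5 within 25.5 to 36.3). They overlapped with it for Sp1 (185 to 214 against 196 to 260) and lay below it for Ctnnb1 (1068 to 1135 against 1201 to 1349). With the block Myc, which drives Tert through E-boxes, also rose (0.30, adjusted p = 0.0020). That made 2 higher and 3 lower of the 8, beside 21.4% of all genes. Myc was at 39.3 CPM on average in Smg6-iKO, 38.7 in Ctr + 4-OHT and 32.3 in Ctr, with a log2 fold change of 0.03 (adjusted p = 0.922) against Ctr + 4-OHT. Of the 67 genes of these 7 lists, 1 rose and 9 fell against Ctr by edgeR, beside 9.25% of all genes. DESeq2 called 14 of them, beside 16.2%, and 25 had an unadjusted p under 0.05, beside 26.9%. Against Ctr + 4-OHT, 0 of the 67 were called by edgeR, beside 1.17%, 11 by DESeq2, beside 6.16%, and 19 at an unadjusted p under 0.05, beside 16.7%. The median log2 fold change against Ctr was -0.05 for H/ACA and assembly, -0.14 for CST and primase, -0.13 for helicases and nucleases, -0.08 for end sensing, -0.08 for shelterin partners, -0.14 for chromatin and -0.09 for Tert regulators, where all genes had 0.005 and the shelterin genes 0.07.

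Genes of the cell cycle were lower in Smg6-iKO. Of 19 genes of replication and mitosis, all 19 had log2 fold changes below 0 in Smg6-iKO against either control, 5 fell against Ctr + 4-OHT (Mki67, Cdk1, Ccna2, Ccnb1 and Mcm3) and 15 against Ctr, 19 with the block, beside 1.17%, 9.25% and 21.4% of all genes. DESeq2 called 15 of the 19 against Ctr + 4-OHT and 17 against Ctr, beside 6.16% and 16.2%. Their summed level was 2724 to 3056 CPM in Smg6-iKO, 3551 to 4244 in Ctr + 4-OHT and 3800 to 3882 in Ctr. Their part in the values of the telomere genes was not tested. The genes whose log2 CPM over the 11 libraries was most like that of Tinf2 were Pmf1 (Pearson's r = 0.98), Foxm1 (r = 0.975) and Kpna2 (r = 0.972), and for Pot1b they were Zw10 (r = 0.942), Vmn2r87 (r = 0.938) and Tut7 (r = 0.938). These are descriptions over libraries that share the 3 groups.

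Among cell type markers, in the comparison with Ctr, 5 of 9 neural progenitor markers fell (Sox2, Pax6, Hes5, Fabp7 and Notch1) and 1 of 5 astrocyte markers rose (Gfap), beside 9.25% of all genes called, while 0 of 9 and 0 of 5 were called by edgeR against Ctr + 4-OHT, beside 1.17%, with 1 and 0 called by DESeq2, beside 6.16%, and 3 and 0 at an unadjusted p under 0.05, beside 16.7%. Gfap had 25.7 to 63.6 CPM in Smg6-iKO and 10.6 to 26.2 in Ctr, but spanned 5.14 to 78.2 in Ctr + 4-OHT. With the block, under which 21.4% of all genes were called, 6 of 9 progenitor markers fell, the astrocyte markers Gfap and S100b rose and Gja1 fell, 2 of 5 markers of the oligodendrocyte lineage rose, and of the 5 mesenchyme markers 1 rose and 1 fell. The summed progenitor markers were at 5408 to 6283 CPM in Smg6-iKO, 5712 to 7038 in Ctr + 4-OHT and 6369 to 6873 in Ctr. Of 7 neuron markers 0 were called by edgeR in either comparison, 5 by DESeq2, beside 16.2% of all genes, and 5 at an unadjusted p under 0.05, beside 26.9%, against Ctr (0 and 0 against Ctr + 4-OHT). With the block 5 of the 7 rose, beside the same 21.4%. The neuron markers had summed levels of 2094 to 2416 CPM in Smg6-iKO, 1644 to 2676 in Ctr + 4-OHT and 1790 to 1976 in Ctr. The astrocyte markers summed to 553 to 696 CPM, the oligodendrocyte lineage to 235 to 398 CPM and the mesenchyme to 90.5 to 548 CPM over the 11 libraries, and endothelium and mural markers to at most 8.28 CPM. Hba-a2 was at a count of 0 in Ctr and Hbb-bs in Ctr + 4-OHT and Smg6-iKO. The part of these markers in the values of the shelterin and telomerase genes was not tested.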

How the data were processed

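Total RNA was sequenced in 11 NPC libraries, which were grouped by their labels. The authors deposited 1 whole-number count per gene and library, not normalized: per the labels and file headers, single reads of 50 bases were extracted with bcl2fastq 1.8.4, aligned to GRCm38 with STAR 2.5.4b and counted strand-specifically with featureCounts 1.5.0 on Ensembl genes. Reads that mapped to several positions or genes were left out, so sequence shared with near-identical copies is undercounted. Of the 53801 identifiers, 53706 were paired with a symbol by GENCODE M21.

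Each comparison was fitted to the libraries of its own 2 groups in R 4.3.3 with edgeR 4.0.16 (filterByExpr, TMM, quasi-likelihood test, Benjamini-Hochberg adjustment over all genes tested, threshold 0.05), and SE and 95% intervals were taken from the same fit. CPM and FPKM used TMM factors from all 11 libraries (18123 genes passed the filter there) and the Length column of the files. Log2 CPM had a prior count of 2. Depth was 26418249 to 33756875 counted reads per library, and the spread between embryos includes counting error. No pair of libraries of a group held duplicate counts. Libraries of the same embryo deviated together from their group means (r between 0.328 and 0.425 in 3 pairs, against -0.265 to 0.095 in 9 pairs of different embryos), and the labels give these libraries the same embryo number, so the fit with the embryo as a block is given where it changes a call. Alternatives were DESeq2 size factors, upper-quartile normalization, no filter, all 11 libraries in 1 fit, DESeq2 1.42.0, a loess correction for gene length (span 0.3), the block, and each library left out. The scripts were tested on simulated data.

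The members, gene lists and tests were chosen with earlier results of these data known. All 10 members are named. Of the other telomere lists, the genes called are named, at most 6 per list and comparison, except for 1 that is not reported here. For the cell cycle and cell type markers, counts are given with some of the genes called. Also named are the 3 genes most like a called member by Pearson's r. The ratios were chosen after values were seen. Also computed was the ratio of Tinf2 to Terf1, in FPKM. It was 1.4 to 1.47 in Ctr, 1.32 to 1.66 in Ctr + 4-OHT and 1.2 to 1.4 in Smg6-iKO. Plots came from matplotlib 3.10.9 and tables from pandas 2.3.3 under Python 3.11.15.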

Additional observations from a re-analysis of the deposited data

Results flagged for a closer look

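Acd stood at 31.5 CPM in the Smg6-iKO culture of embryo SMH_128, apart from the other 3 Smg6-iKO cultures at 34.9 to 35.4 CPM by a gap larger than Dixon's 95% critical value for 4 samples. Among the 22 groups of 4 libraries tested this was the only such sample, and chance alone gives about 1 in 20. The same embryo's Ctr culture had 31.4 CPM.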

How the results depend on the processing

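In Smg6-iKO against Ctr + 4-OHT and in Ctr + 4-OHT against Ctr, 0 of the 10 genes were called under every alternative run. Against Ctr, where 2 were called, 1 was called without a filter, in the fit of all 11 libraries and after the length correction (each time Tinf2), 3 with upper-quartile normalization (which added Tert), 4 with the embryo as a replicate block, which added Tert and Dkc1 and changed no other call of the 10, 3 with block and length correction (Tinf2, Pot1a and Dkc1), and 0 to 4 when a library was left out: 0 without Ctr SMH_128, SMH_132 or SMH_133 or Smg6-iKO SMH_127 or SMH_133, 1 without Smg6-iKO SMH_132, and 4 without Smg6-iKO SMH_128. Over all genes, the 206 calls against Ctr + 4-OHT became 418 without a filter, 484 in the fit of all 11 libraries, 880 with DESeq2 and 66 to 174 with a library left out (66 without Smg6-iKO SMH_132). The 1663 calls against Ctr became 2714 without a filter, 796 in the fit of all 11, 3854 with the block, 4076 with block and length correction, and 570 to 2524 with a library left out (570 without Smg6-iKO SMH_133, 2524 without Smg6-iKO SMH_128). The 39 calls of Ctr + 4-OHT against Ctr became 198 without a filter, 60 in the fit of all 11, 168 with DESeq2 and 5 to 54 with a library left out (5 without Ctr SMH_128 or Ctr SMH_132). The share of calls that were higher differed between alternatives: 46.1% of the calls against Ctr were higher, but 61.1% with upper-quartile normalization and 28.1% after the length correction, and against Ctr + 4-OHT 64.6% were higher, but 50.2% in the fit of all 11, 44.0% with the DESeq2 test, 37.6% after the length correction and 61.0% with DESeq2 size factors in edgeR.

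Tinf2 and Pot1b kept their direction against either control under each alternative run, as did Tert, Acd, Pot1a and Dkc1. Reversals were found for small log2 fold changes: against Ctr + 4-OHT, Terf2ip gave -0.0008 with DESeq2 and -0.038 after the length correction, and Terf2 -0.014 after the latter. Against Ctr, Terf2ip gave -0.002 with block and length correction, and in Ctr + 4-OHT against Ctr, Terc gave 0.074 after the length correction. With a library left out, the log2 fold changes that crossed 0 against Ctr + 4-OHT ranged from -0.143 to 0.032 (Terf1), -0.0022 to 0.058 (Terf2), -0.027 to 0.061 (Terf2ip) and -0.179 to 0.019 (Terc). Against Ctr, Terc ranged from -0.180 to 0.019. In Ctr + 4-OHT against Ctr the ranges were -0.153 to 0.026 (Terf1), -0.056 to 0.012 (Acd), -0.016 to 0.053 (Pot1a), -0.120 to 0.13 (Terc) and -0.046 to 0.086 (Dkc1). Terc ranked 2 by FPKM and 10 by CPM. The causes of these changes were not tested. With 106 to 225 reads per library, Tert and Terc had the widest intervals among the 10 genes.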
